A study of Mus musculus with 4 samples.

Results

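Hox genes encode homeodomain transcription factors that give cells of the embryo their place along the head-to-tail axis, and they are described here in stromal cells that were sorted from mouse pancreatic ductal adenocarcinoma. The Hox genes were taken as all rows of the deposited count table named Hoxa, Hoxb, Hoxc or Hoxd with a paralog number, which gave 39 of 22609 genes: 11 in the Hoxa cluster, 10 in Hoxb, 9 in Hoxc and 9 in Hoxd. The cells came from a spontaneous model of the tumour on the C57BL/6 background, and the labels do not name the alleles that drive it. All cells were sorted for FAP, the fibroblast activation protein, which is a protease on the surface of tumour stroma. CD34, a sialomucin of the cell surface that is carried by endothelial cells, blood progenitors and some fibroblasts, divided them into 2 CD34+ libraries and 2 CD34- libraries. The titles call the libraries of a group biological replicates. The sources used here do not give the number of animals per library.

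In the mouse the Hox genes lie in 4 clusters, and their order along a cluster matches the order in which they act along the body axis. Low paralog numbers act in the hindbrain and neck, middle numbers in the chest, and high numbers in the lumbar, sacral and limb regions. Adult fibroblasts keep part of the Hox pattern of their origin, so the genes are widely read as a positional record of a mesenchymal cell. Hox proteins bind DNA with partners of the Pbx and Meis families, Polycomb and Trithorax complexes hold the clusters silent or active, and retinoic acid switches on the low-numbered end.

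The CD34+ libraries held 10322354 and 13649942 reads counted to genes, against 13218444 and 14633561 reads in CD34- cells, each pair given as replicate 1 and then replicate 2, here and throughout. Levels are in CPM, the reads of a gene scaled to the library's total count. The limit that a count of 0 allows, 3 counts, was 0.291 and 0.220 CPM in CD34+ cells, against 0.227 and 0.205 CPM in CD34- cells. This limit and the intervals given later cover counting error only. Cd34 had 143 and 293 CPM in CD34+ cells, against 18.3 and 23.9 CPM in CD34- cells, in the direction of the sort. Fap had 79.0 and 39.8 CPM in CD34+ cells, against 142 and 136 CPM in CD34- cells. Over 14 general fibroblast markers the summed level was 45452 and 47084 CPM in CD34+ cells, against 46721 and 43476 CPM in CD34- cells. Col1a2 was the largest part of this sum, which does not show whether single markers agreed. Of the 14, 8 had a positive and 6 a negative log2 fold change of CD34+ over CD34-. CD34- replicate 1 stood apart for Hox genes of high number, and folds of single genes and of clusters that rest on it are given with and without it. The libraries are bulk samples, so fewer cells of a type and less RNA per cell cannot be told apart.

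Hox genes took 2316 and 3512 reads in CD34+ cells, against 4493 and 4642 reads in CD34- cells. Their summed level was 241 ± 23.3 CPM in CD34+ cells and 329 ± 16.0 CPM in CD34- cells (SD, n = 2 each), a log2 ratio of -0.45, and the groups did not overlap. Reads were found for 31 of the 39 genes in all 4 libraries. A level of at least 1 CPM was reached by 19 and 20 genes in the CD34+ libraries, against 26 and 19 genes in the CD34- libraries. The expressed genes were mainly those of low and middle number. In the Hoxb cluster the levels ran from 27.7 to 45.2 CPM at Hoxb2 and were at most 1.13 CPM at Hoxb9 in any library. Genes numbered 4 to 8 held 66.97% and 69.11% of Hox reads in CD34+ cells, against 63.4% and 72.1% in CD34- cells.

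**Figure D1:**
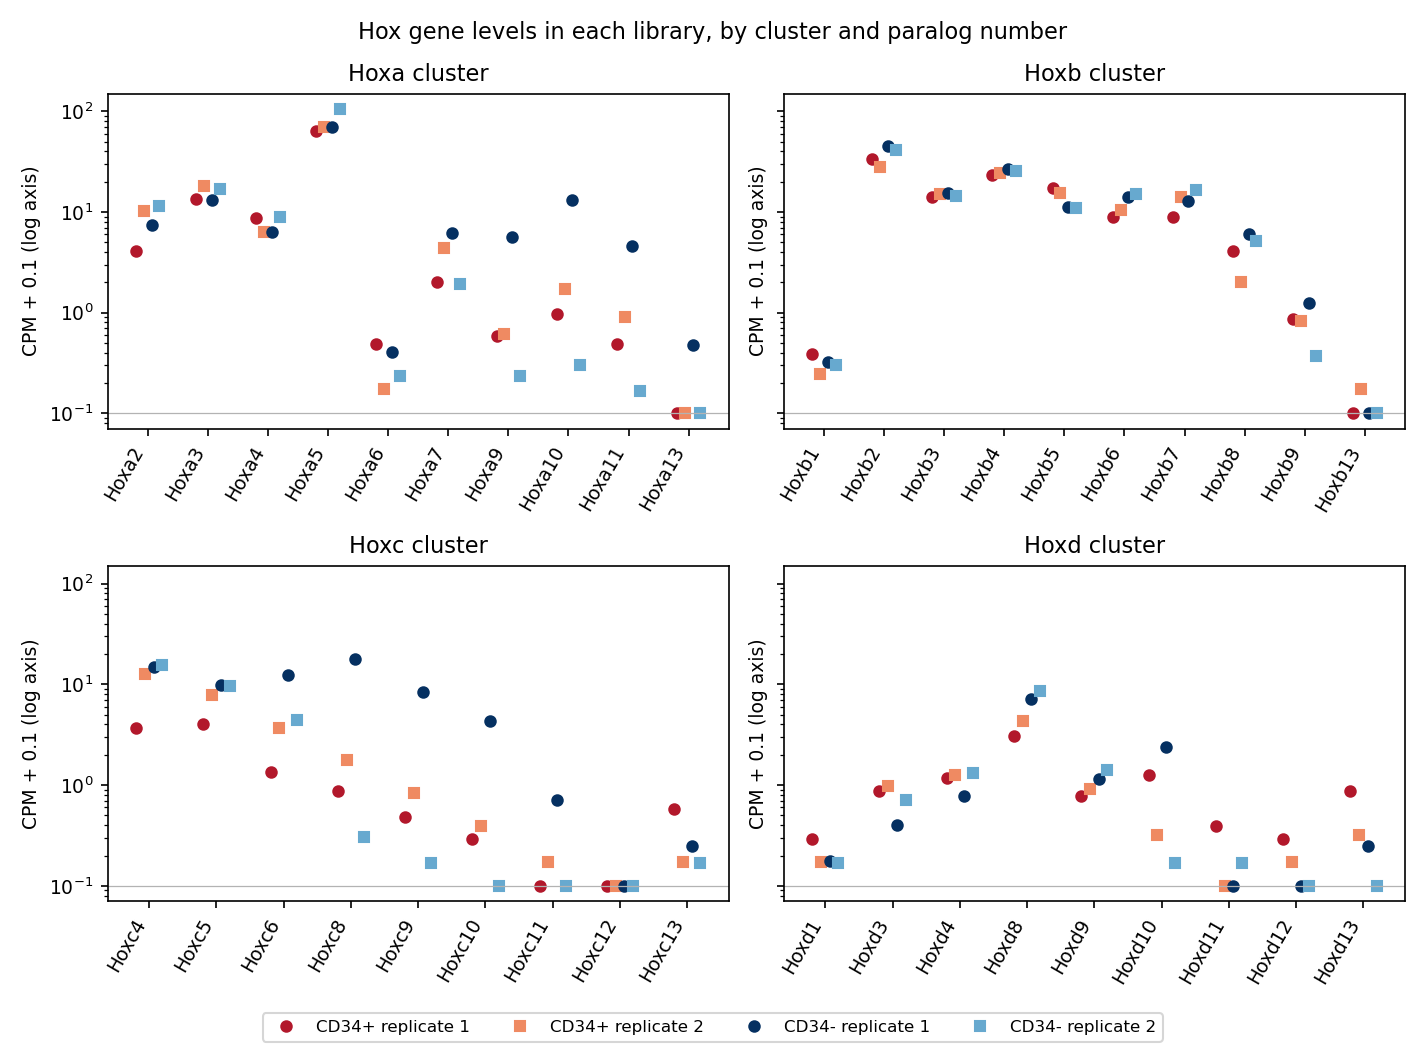
Level of the Hox genes reported singly in each of the 4 libraries, on a log axis of CPM + 0.1, with a panel for each cluster and genes in order of paralog number; the grey line marks a count of 0. Red and orange symbols are the CD34+ libraries and blue symbols the CD34- libraries; most genes numbered 1 to 5 have all 4 symbols close together, while at Hoxa9 to Hoxa11 and Hoxc8 to Hoxc10 the dark blue circle of CD34- replicate 1 stands above the other libraries and CD34- replicate 2 is lowest.

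Among Hox genes the level per gene length was highest for Hoxa5, which patterns the neck and upper chest and is needed for lung formation. On the deposited RPKM scale (reads scaled to gene length and sequencing depth) Hoxa5 had 19.03 and 27.13 RPKM in CD34+ cells, against 30.4 and 48.6 RPKM in CD34- cells. It was first of the 39 Hox genes in every library. Hoxb2, a hindbrain gene, was second in every library, with 11.6 and 12.4 RPKM in CD34+ cells, against 22.7 and 21.8 RPKM in CD34- cells. Hoxb4, Hoxb6 and Hoxb7 filled ranks 3 to 6 with 1 other gene. In CD34+ cells Hoxb4 had 5.12 and 6.91 RPKM, against 8.51 and 8.63 RPKM in CD34- cells, and the levels of these neighbours changed order between libraries. The authors' RPKM totals differ from the count totals, so RPKM are compared here between genes of a library and CPM between libraries.

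Genes numbered 1 to 3, which act at the head end, were carried by Hoxb2, Hoxa3, Hoxb3 and Hoxa2. Hoxb2 had 33.8 and 27.7 CPM in CD34+ cells, against 45.2 and 41.2 CPM in CD34- cells, so that both CD34+ libraries were lower. Its log2 fold change of CD34+ over CD34- was -0.47 (SE 0.24), with an adjusted p of 0.387 in edgeR's quasi-likelihood test. Hoxa3, needed for thymus and parathyroid formation, had 13.3 and 17.9 CPM in CD34+ cells, against 13.01 and 16.74 CPM in CD34- cells, and the groups overlapped. Hoxb3 had 13.9 and 14.9 CPM in CD34+ cells, against 15.2 and 14.2 CPM in CD34- cells, a spread of little over 1 CPM across all 4 libraries. Hoxa2, which sets the identity of the second branchial arch, had 3.97 and 10.1 CPM in CD34+ cells, against 7.34 and 11.5 CPM in CD34- cells. Replicate 1 was the lower library of both groups for Hoxa2. Hoxd3 had 0.775 and 0.879 CPM in CD34+ cells, against 0.303 and 0.615 CPM in CD34- cells, which rest on 12 reads or fewer. Hoxb1 and Hoxd1 had at most 3 reads in any library.

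Genes numbered 4 to 8, the middle of the clusters, held most Hox reads. Hoxa5 had 63.7 and 70.0 CPM in CD34+ cells, against 69.8 and 106 CPM in CD34- cells, and the CD34+ mean of 66.9 ± 4.45 CPM stood below the CD34- mean of 87.8 ± 25.5 CPM (SD, n = 2 each) by less than the spread of the CD34- libraries. Hoxb4, known for expanding blood stem cells, had 23.4 and 24.4 CPM in CD34+ cells, against 26.7 and 25.7 CPM in CD34- cells. The groups were apart for Hoxb4, but by a log2 fold change of only -0.11 (SE 0.24). Hoxb5 went the other way, with 17.1 and 15.4 CPM in CD34+ cells, against 11.2 and 10.9 CPM in CD34- cells. Its log2 fold change was 0.57 (SE 0.29), with an adjusted p of 0.376 in edgeR's quasi-likelihood test. Hoxb6 had 8.72 and 10.5 CPM in CD34+ cells, against 14.0 and 15.1 CPM in CD34- cells. Thus Hoxb5 and its neighbour Hoxb6 in the same cluster had opposite order between the groups. Hoxb7 had 8.82 and 14.1 CPM in CD34+ cells, against 12.9 and 16.3 CPM in CD34- cells. Hoxb8, the last well-expressed gene of its cluster, had 3.97 and 1.90 CPM in CD34+ cells, against 5.90 and 5.06 CPM in CD34- cells. Hoxa4 had 8.53 and 6.23 CPM in CD34+ cells, against 6.28 and 8.82 CPM in CD34- cells, and Hoxd4 lay between 0.681 and 1.23 CPM. The groups overlapped for both. Hoxa7 had 1.94 and 4.25 CPM in CD34+ cells, against 6.05 and 1.85 CPM in CD34- cells, so that its highest and lowest libraries were both CD34-. Hoxa6 had at most 4 reads in any library.

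Of the Hox genes whose groups did not overlap, Hoxc6 and Hoxd8 were lowest in CD34+ cells relative to CD34- cells, and Hoxc4 and Hoxc5 were lower as well, all without passing the test. Hoxc4 had 3.58 and 12.5 CPM in CD34+ cells, against 14.8 and 15.3 CPM in CD34- cells. Hoxc5 had 3.97 and 7.69 CPM in CD34+ cells, against 9.76 and 9.64 CPM in CD34- cells. For both genes CD34+ replicate 1 was the lowest library, while the CD34- libraries lay within 1 CPM of each other. Hoxc6 had 1.26 and 3.59 CPM in CD34+ cells, against 12.3 and 4.31 CPM in CD34- cells, so that its CD34- mean rested largely on replicate 1. The log2 fold change of Hoxc6 was -1.71 (SE 0.69) with an adjusted p of 0.301 in edgeR's test, and leaving out each library in turn gave -2.67 (without CD34+ replicate 2) to -0.90 (without CD34- replicate 1). Hoxd8 had 3.003 and 4.249 CPM in CD34+ cells, against 7.04 and 8.41 CPM in CD34- cells. Its log2 fold change was -1.08 (SE 0.42) with an adjusted p of 0.292, and leaving out each library in turn gave -1.35 to -0.86, again in edgeR's test.

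Genes numbered 9 to 13, which act in the lumbar, sacral and limb regions, were low in 3 libraries and high in 1. They summed to 6.68 and 6.23 CPM in CD34+ cells, against 41.5 and 2.26 CPM in CD34- cells. Their share of all Hox reads was 2.98% (exact binomial 95% interval 2.33 to 3.76) and 2.42% (1.94 to 2.98) in CD34+ cells, against 12.2% (11.3 to 13.2) and 0.711% (0.490 to 0.997) in CD34- cells. The highest and the lowest share both belonged to CD34- libraries. Summed CPM were 18.4 times as high in CD34- replicate 1 as in CD34- replicate 2, with a 95% counting interval of 12.9 to 26.98.

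**Figure D2:**
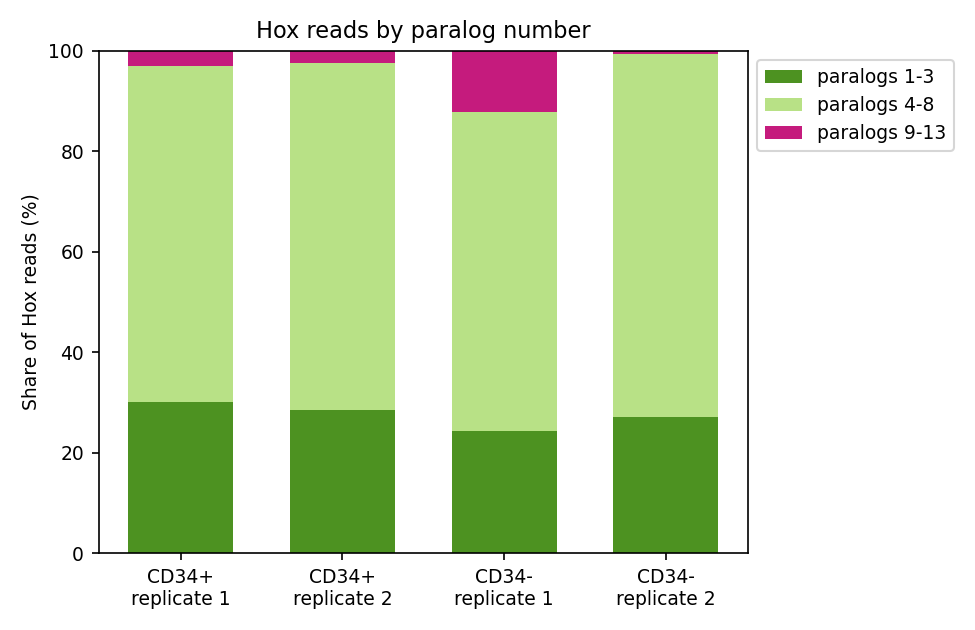
Share of Hox reads, in percent, held by genes numbered 1 to 3, 4 to 8 and 9 to 13 in each library, with 1 stacked bar per library and the CD34+ libraries at the left. The top segment, genes 9 to 13, is 12.2% in CD34- replicate 1 and 2.98%, 2.42% and 0.711% in CD34+ replicate 1, CD34+ replicate 2 and CD34- replicate 2.

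The genes high in CD34- replicate 1 were neighbours at one end of Hoxa and of Hoxc. Hoxa10, which keeps ribs off the lumbar vertebrae together with its paralogs and acts in the uterus, had 0.872 and 1.61 CPM in CD34+ cells, against 13.1 and 0.205 CPM in CD34- cells. Hoxc8, which patterns the lower chest, had 0.775 and 1.68 CPM in CD34+ cells, against 17.9 and 0.205 CPM in CD34- cells. Hoxa9, a driver of myeloid leukaemia when overexpressed, had 0.484 and 0.513 CPM in CD34+ cells, against 5.52 and 0.137 CPM in CD34- cells. In each of these genes CD34- replicate 1 stood alone and CD34- replicate 2 was below both CD34+ libraries. Hoxc9 had 0.388 and 0.733 CPM in CD34+ cells, against 8.32 and 0.068 CPM in CD34- cells. Hoxc10 had 0.194 and 0.293 CPM in CD34+ cells, against 4.24 CPM and no read in CD34- cells. Hoxa11, needed for the kidney and forearm with its paralogs, had 0.388 and 0.806 CPM in CD34+ cells, against 4.54 and 0.068 CPM in CD34- cells. The order CD34- replicate 1, CD34+ replicate 2, CD34+ replicate 1, CD34- replicate 2, from high to low, was the same for all 6 genes. The values rest on 56 to 237 reads in CD34- replicate 1 and on 0 to 23 reads in the other libraries.

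Over all genes such a pattern was uncommon. A fold of 3 over the highest other library, chosen after the values were seen, was reached in CD34- replicate 1 by 84 of the 14293 genes with at least 1 CPM in any library (0.588%). Among the 27 Hox genes at that level it was reached by 6 (22.2%), which were Hoxa9, Hoxa10, Hoxa11, Hoxc8, Hoxc9 and Hoxc10. Ordered by this ratio, Hoxc10 was gene 5 of 14293 at 14.5-fold, Hoxc9 gene 7 at 11.4-fold, Hoxa9 gene 8 at 10.8-fold and Hoxc8 gene 9 at 10.6-fold. Hoxa10 was gene 12 at 8.12-fold and Hoxa11 gene 24 at 5.63-fold. Just outside the limit were Hoxc6 at 2.86-fold and Hoxd10 at 1.95-fold, followed by Hoxb9 at 1.46-fold and Hoxa7 at 1.42-fold. Of these 6, only Hoxa10 and Hoxc8 also reached 1 CPM in another library, so the other 4 entered the 27 through the library in which they were high. Among genes with 1 CPM in a library other than CD34- replicate 1, the fold was reached by 2 of 22 Hox genes (9.09%), against 0.276% of 14145 genes. No Hox gene stood that far above the other libraries in CD34+ replicate 1, CD34+ replicate 2 or CD34- replicate 2, where 2.54%, 0.455% and 0.091% of genes did. In CD34- replicate 2 these 6 genes had 0 to 3 reads, too few to size the gap to the CD34+ libraries.

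The last genes of Hoxa and Hoxc followed with few reads. Hoxa13, a gene of the digits and the lower gut, had 5 reads in CD34- replicate 1 and none elsewhere. Hoxc11 had 0 and 1 read in CD34+ cells, against 8 and 0 reads in CD34- cells, and Hoxc12 had none in any library. Hoxd10 had 1.16 and 0.220 CPM in CD34+ cells, against 2.27 and 0.068 CPM in CD34- cells. Hoxd13, a digit gene, had 8 and 3 reads in CD34+ cells, against 2 and 0 reads in CD34- cells. Hoxb9 stayed between 0.273 and 1.13 CPM in all libraries, and Hoxb13, a prostate gene, had 1 read over all libraries. Hoxd9 had 0.678 and 0.806 CPM in CD34+ cells, against 1.06 and 1.30 CPM in CD34- cells, and the groups did not overlap. Hoxc13, a hair follicle gene, had at most 5 reads in any library, Hoxd11 at most 3 and Hoxd12 at most 2. Summed over Hoxc8 to Hoxc11 the counts were 14 and 38 in CD34+ cells, against 411 and 4 in CD34- cells. Hoxa11as, a transcript antisense to Hoxa11, had 0.678 and 0.513 CPM in CD34+ cells, against 4.54 and 0 CPM in CD34- cells, but the sources used here do not give the strand setting of the counting, and its reads cannot be told apart from those of Hoxa11.

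Genes high in CD34- replicate 1 lie beside 2 of the 3 microRNA genes of the miR-196 family, which is known to repress Hox messages, Hoxb8 and Hoxc8 among them. In the RefSeq order on GRCm38.p6, Mir196b lies between Hoxa9 and Hoxa10 and Mir196a-2 between Hoxc10 and Hoxc9. The third, Mir196a-1, lies between Hoxb13 and Hoxb9, which did not reach a fold of 3 in CD34- replicate 1. The mature sequences, from RefSeq, are shown because both share the seed in capitals (bases 2 to 8) that pairs with the target message. No reads were counted for Mir196b and Mir196a-2 in any library, Mir196a-1 had 2 reads in CD34+ replicate 2 and none elsewhere, and amplification from the poly(A) tail followed by gene counting does not measure mature microRNAs.
mmu-miR-196a-5p: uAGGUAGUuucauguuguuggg
mmu-miR-196b-5p: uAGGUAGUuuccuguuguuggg

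The starts of Hoxa9, Hoxa10 and Hoxa5 are shown because Hoxa9 and Hoxa10 moved together across libraries while Hoxa5, in the same cluster, was the most abundant Hox gene and kept within 63.7 to 106 CPM. Each sequence is 250 bases before to 50 bases after the RefSeq start on GRCm38.p6, minus strand, from 5′ to 3′. Hoxa9 is at chr6:52227321-52227620, the Hoxa10 start (1 of 2 in the table) at chr6:52234890-52235189 and Hoxa5 at chr6:52204538-52204837. Capitals mark the TATA-box letters TATAAA on either strand, found in 1 of the 3 sequences shown, that of Hoxa10. There they read on the other strand and begin at base 91 of 300, while the RefSeq start follows the first 250 bases. The other Hoxa10 start in the table, not shown, holds no match. These letters were in 4 of the 24 Hox promoters in the table, which belong to 22 genes, and in 13.6% of 32851 promoters. The Pbx-Hox letters TGATNNAT, searched on both strands, were in 4 of 24 Hox promoters and 8.85% of all promoters, and in none of the 3 sequences shown. With no Pbx-Hox match in the sequences shown, the motifs did not overlap there, and a match describes letters and not binding.
Hoxa9: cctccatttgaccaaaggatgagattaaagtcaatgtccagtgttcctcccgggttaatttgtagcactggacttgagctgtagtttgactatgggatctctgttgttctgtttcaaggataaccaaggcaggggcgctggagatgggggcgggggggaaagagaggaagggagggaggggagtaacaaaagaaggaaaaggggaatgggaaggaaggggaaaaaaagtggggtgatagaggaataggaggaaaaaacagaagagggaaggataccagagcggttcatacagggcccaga
Hoxa10: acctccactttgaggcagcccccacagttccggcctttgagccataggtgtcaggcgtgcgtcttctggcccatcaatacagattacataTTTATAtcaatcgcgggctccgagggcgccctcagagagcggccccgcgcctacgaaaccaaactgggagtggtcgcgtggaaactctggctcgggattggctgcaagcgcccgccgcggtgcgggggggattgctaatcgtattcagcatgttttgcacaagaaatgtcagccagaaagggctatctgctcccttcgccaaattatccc
Hoxa5: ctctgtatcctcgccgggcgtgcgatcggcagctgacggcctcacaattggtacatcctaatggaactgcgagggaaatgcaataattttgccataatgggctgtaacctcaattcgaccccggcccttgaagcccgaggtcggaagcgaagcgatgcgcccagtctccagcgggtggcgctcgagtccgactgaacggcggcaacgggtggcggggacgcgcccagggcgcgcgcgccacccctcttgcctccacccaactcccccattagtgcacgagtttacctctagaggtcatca

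Summed by cluster, Hoxa and Hoxb held most of the reads and Hoxc varied most. Hoxa summed to 94.8 and 113 CPM in CD34+ cells, against 128 and 147 CPM in CD34- cells. Hoxb summed to 111 and 110 CPM in CD34+ cells, against 132 and 129 CPM in CD34- cells. Both CD34+ libraries were below both CD34- libraries in each of these clusters, with log2 ratios of the group means of -0.40 and -0.25. Without CD34- replicate 1 these ratios were -0.50 and -0.23. Hoxa genes numbered 9 to 13 gave 1.74 and 2.93 CPM in CD34+ cells, against 23.5 and 0.41 CPM in CD34- cells. The place of CD34- replicate 1 above CD34+ replicate 2 in the Hoxa sum rested on these genes. Hoxd summed to 7.92 ± 0.315 CPM in CD34+ cells and 11.7 ± 0.127 CPM in CD34- cells (SD, n = 2 each), a log2 ratio of -0.56. Hoxc summed to 10.7 and 26.7 CPM in CD34+ cells, against 68.1 and 29.6 CPM in CD34- cells. Its log2 ratio was -1.39, and -0.67 without CD34- replicate 1 and -2.20 without CD34+ replicate 2. With 2 libraries a group, an exact permutation test of a sum cannot go below p = 0.3333, and none was run. Hoxc took 4.75% and 10.4% of Hox reads in CD34+ cells, against 20.0% and 9.33% in CD34- cells.

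**Figure D3:**
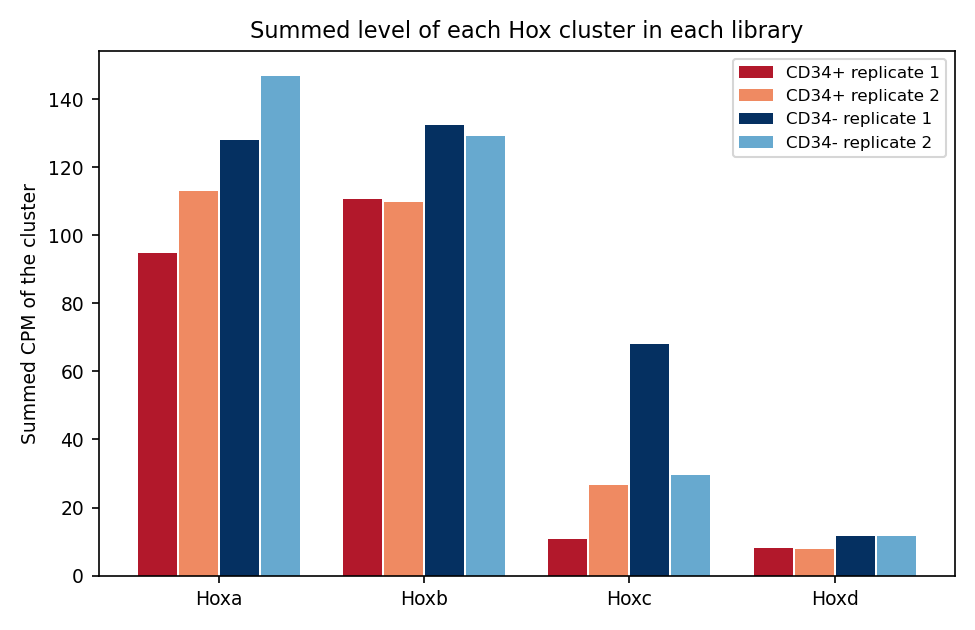
Summed CPM of all genes of each Hox cluster, with 1 bar per library and the CD34+ libraries (red, orange) left of the CD34- libraries (dark and light blue). In Hoxa, Hoxb and Hoxd both CD34+ bars are below both CD34- bars; in Hoxc the bar of CD34- replicate 1, at 68.1 CPM, stands above bars of 10.7, 26.7 and 29.6 CPM.

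The order of the 39 Hox genes by RPKM was alike in 3 libraries and differed most for CD34- replicate 1. Across genes, which share a library and are not replicates, Spearman's rho was 0.918 between the CD34+ libraries and 0.772 between the CD34- libraries. CD34- replicate 2 had a rho of 0.933 with CD34+ replicate 1 and 0.919 with CD34+ replicate 2. CD34- replicate 1 had a rho of 0.790 with CD34+ replicate 1 and 0.904 with CD34+ replicate 2.

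No Hox gene passed the test between CD34+ and CD34- cells. Of the 39 genes, 25 passed the filter on low counts and were tested among 13875 genes. Of these 25, 0 were higher and 0 were lower at an adjusted p of 0.05 in edgeR's quasi-likelihood test, where 0% of all tested genes were called in either direction. At an unadjusted p under 0.05, 0 Hox genes were higher, against 9.81% of all genes. At the same limit of edgeR's test 2 were lower, Hoxc6 (unadjusted p = 0.0474) and Hoxd8 (unadjusted p = 0.0431), which is 8% of 25 against 6.65% of all genes. DESeq2 also called 0 Hox genes, against 2.31% of genes called higher and 1.33% called lower. The exact test of edgeR called 0 as well, against 3.39% higher and 1.48% lower. The 14 genes without a test were low in most libraries. Among them Hoxa9, Hoxc9 and Hoxc10 averaged over 1 CPM, from reads mostly in CD34- replicate 1, and the other 11 stayed at or below 0.775 CPM in every library. Because the genes passed by their counts in the libraries where they were higher, of the same group or not, counts over the 25 genes describe these and not all Hox genes.

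The fitted changes leaned to lower values in CD34+ cells without passing the test. The log2 fold change was below 0 for 20 of the 25 genes (80%), against 51.3% of all tested genes, and its median was -0.42, against -0.02 over all. Without CD34- replicate 1 the fold change was below 0 for 17 of the same 25 genes, with a median of -0.25. CD34+ and CD34- libraries did not overlap for 2 genes higher in CD34+ cells, Hoxb5 and Hoxd3, which is 8% of 25 against 23.4% of all genes. They did not overlap for 9 genes lower in CD34+ cells, which is 36% against 26.6% of all genes. These 9 were Hoxb2, Hoxb4, Hoxb6, Hoxb8, Hoxc4, Hoxc5, Hoxc6, Hoxd8 and Hoxd9. By cluster the median was -0.34 over 8 Hoxa genes, -0.23 over 8 Hoxb genes, -1.30 over 4 Hoxc genes and -0.65 over 5 Hoxd genes. Over the same genes without CD34- replicate 1 it was -0.22 for Hoxa, -0.35 for Hoxb, -0.85 for Hoxc and -0.22 for Hoxd. Without CD34- replicate 2 the Hoxa median was 0.0027, without CD34+ replicate 2 the Hoxd median was 0.07 and that of Hoxc -2.36, and without CD34+ replicate 1 the Hoxa, Hoxb and Hoxc medians were -0.16, -0.09 and -0.77. Genes of a cluster overlap or neighbour each other and are not independent values.

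The direction of several genes turned when CD34- replicate 1 was left out, by the most for Hoxa10, Hoxa11, Hoxc8 and Hoxd10. The log2 fold change of CD34+ over CD34- was -2.32 (SE 1.44) for Hoxa10 with all libraries and 2.47 without CD34- replicate 1. It was -2.77 (SE 1.54) for Hoxc8 and 2.46 without that library. For Hoxa11 it was -1.82 (SE 1.40), against 2.90 without it, and for Hoxd10 -0.72 (SE 1.34), against 3.04. Without that library the CD34- side is replicate 2 alone, with 3 reads each of Hoxa10 and Hoxc8 and 1 read each of Hoxa11 and Hoxd10. These reads are too few to size the positive values. Hoxd10 also turned to 0.07 without CD34+ replicate 2. Hoxa7 was -0.29 (SE 0.69), against 0.66 without CD34- replicate 1, Hoxa3 0.08 (SE 0.32), against -0.19, and Hoxd4 0.23 (SE 0.59), against -0.22. Hoxd9 stayed negative, at -0.65 (SE 0.55) and -0.88, and Hoxb9 positive, at 0.15 (SE 0.76) and 1.35, although Hoxb9 turned to -0.50 without CD34- replicate 2. In CPM of Hoxa10, Hoxa11, Hoxc8 and Hoxd10 the CD34- libraries differed from each other by more than the group means did. Wherever 1 of the 25 genes could be fitted in the 16 alternatives, among them DESeq2, edgeR's exact test and limma, which gave 372 values, the adjusted p was at or above 0.149.

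**Figure D4:**
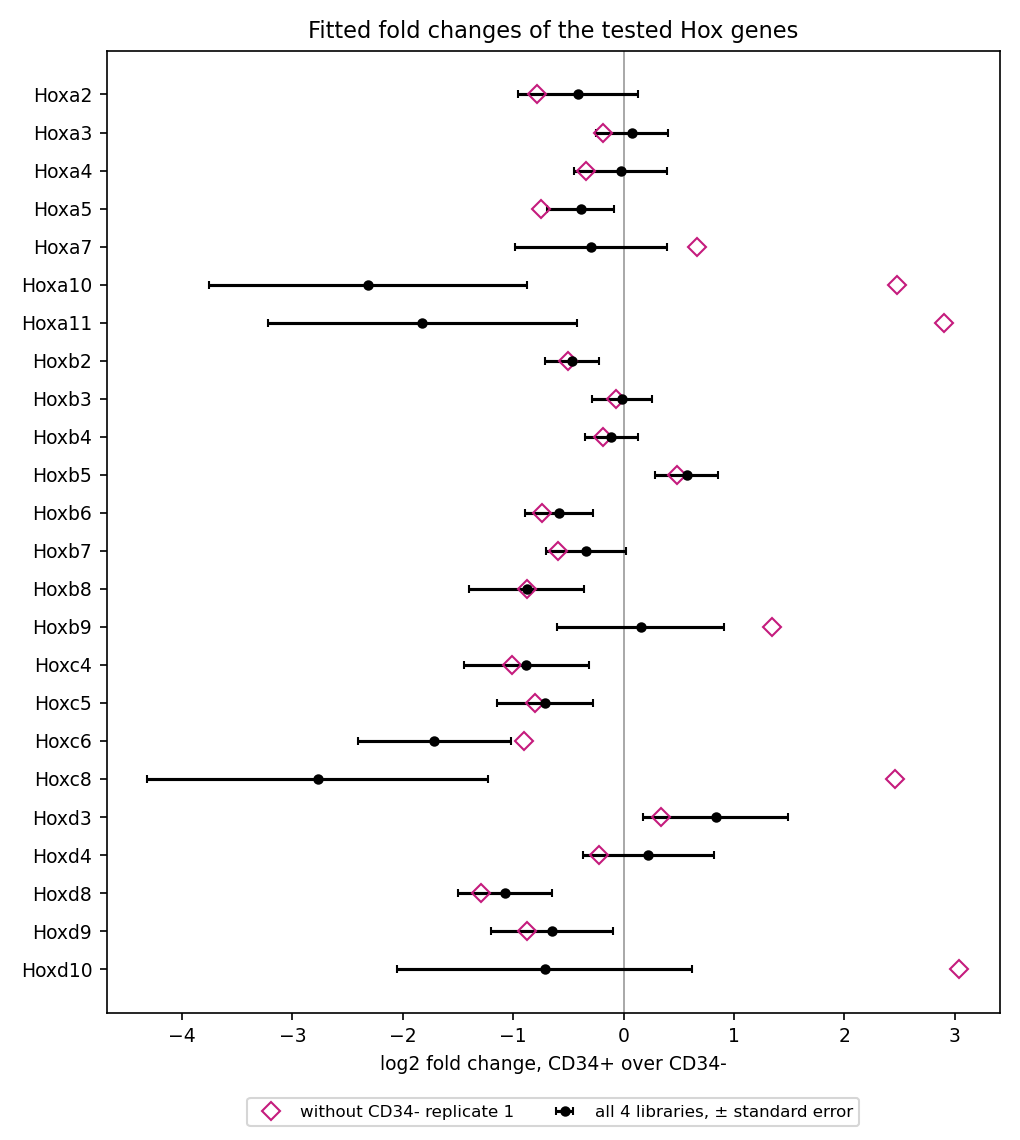
Log2 fold change of CD34+ over CD34- for tested Hox genes reported singly, from edgeR's quasi-likelihood fit; black points with bars are the fit to all 4 libraries with ± 1 standard error, and open diamonds the fit without CD34- replicate 1. Diamonds lie on the other side of 0 from the points for Hoxa3, Hoxa7, Hoxa10, Hoxa11, Hoxc8, Hoxd4 and Hoxd10, with the widest gaps at Hoxa10, Hoxa11, Hoxc8 and Hoxd10. For the last 4 genes the CD34- side of the diamond rests on 1 or 3 reads.

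The DNA-binding partners of Hox proteins were expressed in all libraries. Of 9 tested TALE homeodomain genes (Pbx, Meis and Pknox), 0 passed edgeR's quasi-likelihood test in either direction. As that test called 0% of all genes, 0 passing in this and the later lists does not set a list apart from other genes. Of the 9, 5 had a positive and 4 a negative fold change, with a median of 0.51. Meis2 had 80.3 and 103 CPM in CD34+ cells, against 62.8 and 67.3 CPM in CD34- cells. Pbx3 had 6.59 and 10.6 CPM in CD34+ cells, against 17.3 and 17.6 CPM in CD34- cells, so both CD34+ libraries were lower for this partner and higher for Meis2. Of 14 Polycomb subunits 0 passed in either direction, with 5 positive and 9 negative fold changes and a median of -0.12. Bmi1, a subunit of the first Polycomb complex, had 9.59 and 30.5 CPM in CD34+ cells, against 49.4 and 50.6 CPM in CD34- cells. Cbx7, a chromodomain subunit of that complex, had 9.59 and 12.5 CPM in CD34+ cells, against 4.31 and 5.06 CPM in CD34- cells.

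Of 8 Trithorax genes and demethylases of histone H3 lysine 27, 0 passed in either direction, with 5 positive and 3 negative fold changes and a median of 0.45. Kdm6b, which removes the Polycomb mark and is also an early-response gene in stimulated cells, had 938 and 434 CPM in CD34+ cells, against 143 and 223 CPM in CD34- cells. Its log2 fold change was 1.92 (SE 0.49) with an adjusted p of 0.203 in edgeR's quasi-likelihood test, while DESeq2 gave an adjusted p of 0.0022 and edgeR's exact test 0.013, in a range of 0.0022 to 0.577 over 16 alternative fits. Mll1, a histone H3 lysine 4 methyltransferase that keeps Hox genes active, had 189 and 107 CPM in CD34+ cells, against 77.5 and 62.7 CPM in CD34- cells.

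Of 14 tested genes for its receptors, synthesis and breakdown 0 passed in either direction, with 7 positive and 7 negative fold changes and a median of 0.02. Rarb, a receptor that retinoic acid itself induces, had 12.7 and 16.8 CPM in CD34+ cells, against 39.5 and 30.2 CPM in CD34- cells. Its log2 fold change was -1.22 (SE 0.27) with an adjusted p of 0.177 in edgeR's quasi-likelihood test, and DESeq2 gave 0.043, in a range of 0.0188 to 0.576 over 16 alternative fits. Aldh1a3, an enzyme of retinoic acid synthesis, had 37.0 and 37.9 CPM in CD34+ cells, against 72.8 and 123 CPM in CD34- cells. Its adjusted p was 0.199 in edgeR's quasi-likelihood test and 0.017 in DESeq2, in a range of 0.0173 to 0.564 over 16 alternative fits.

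Positional genes outside the Hox clusters mostly had negative fold changes that did not pass the test. Of 24 tested non-Hox transcription factors of position (Tbx, Gata, Nkx and others) 0 passed in either direction, with 7 positive and 17 negative fold changes and a median of -0.55. Over all tested genes 51.3% of fold changes were negative. The genes of the list share their libraries and are not independent values. Tbx18, a gene of mesothelial and pericyte lineages, had 5.43 and 7.77 CPM in CD34+ cells, against 17.8 and 12.2 CPM in CD34- cells. In CD34- replicate 1 the level was at least 3 times that of the highest other library for 1 of 24 such genes at 1 CPM, Irx5, and for 0 of 20 genes that flank the Hox clusters. Irx5 had 0.581 and 0.879 CPM in CD34+ cells, against 4.77 and 0.683 CPM in CD34- cells. It thus entered the 24 through the library in which it was high. Over all genes with at least 1 CPM in any library the share was 0.588%, and lists this small cannot be set apart from it. The flanking genes gave 0 passing of 19 tested in either direction, 9 positive and 10 negative, with a median of -0.11. Of 10 Cdx, ParaHox and axial regulators, which act upstream of Hox genes in the embryo, 3 were tested and 0 passed in either direction, all 3 with negative fold changes (median -0.46). None of the 8 other transcripts of the clusters passed the filter on low counts.

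Markers of other cell types were present in all libraries, and endothelial markers had the largest median fold change of these lists. Of 12 endothelial markers 0 passed the adjusted test in either direction, 9 had a positive and 3 a negative fold change, with a median of 1.72, and 8 were higher in CD34+ cells at an unadjusted p under 0.05 in edgeR's test, against 9.81% of all genes. Pecam1 had 15.8 and 11.7 CPM in CD34+ cells, against 1.51 and 3.42 CPM in CD34- cells. Their summed CPM were 370 and 361 in CD34+ cells, against 272 and 355 in CD34- cells, most of it from Eng, with 244 and 268 CPM in CD34+ cells, against 222 and 304 CPM in CD34- cells. Of 11 tested myeloid and blood cell markers 10 had a positive fold change, with a median of 0.90. The medians were -0.16 over 9 pericyte, 0.42 over 7 mesothelial, 0.36 over 8 epithelial and acinar and 0.07 over 14 fibroblast markers, and 0 markers of these lists passed the adjusted test. Of the 9 pericyte markers, 4 were lower and 1 was higher in CD34+ cells at an unadjusted p under 0.05 in edgeR's test. Over all genes 6.65% were lower and 9.81% higher at that limit. The pericyte median thus stands for markers that differed in both directions. Pericyte markers summed to 439 and 347 CPM in CD34+ cells, against 499 and 574 CPM in CD34- cells. Mesothelial markers summed to 601 and 385 CPM in CD34+ cells, against 515 and 264 CPM in CD34- cells. Myeloid and blood cell markers summed to 254 and 165 CPM in CD34+ cells, against 170 and 123 CPM in CD34- cells, and no list but the epithelial one had a defining marker at 0 in every library. For epithelial and acinar markers the sums were 566 and 372 CPM in CD34+ cells, against 483 and 335 CPM in CD34- cells, with Amy2a5 at 0 in all libraries. Of these 6 lists of cell type markers, fibroblast markers included, none held a gene at least 3 times as high in CD34- replicate 1 as in the highest other library. Over all genes with at least 1 CPM in any library the share was 0.588%, so lists of this size would often hold none. The mesothelial, myeloid and epithelial sums were higher in replicate 1 than in replicate 2 of both groups, and the part of these cell types in the Hox differences was not tested.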

How the data were processed

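RNA of the 4 libraries was amplified with MessageAmp from the poly(A) tail, per the labels' protocols, so reads of 1 transcript can be copies of each other. Bowtie2, TopHat2, HTSeq, edgeR and the build mm9 are named in the submitters' processing notes, without versions or a strand setting. The authors deposited whole-number counts per gene, not normalized, for 22609 genes. Deposited RPKM cover the same genes and deposited FPKM 22558. Each table holds 14 further columns of values that belong to no sample here; they were left unused.

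CPM are counts over the library's total. Counts were tested in all 4 libraries in edgeR 4.0.16 under R 4.3.3. Library sizes were scaled by TMM, low genes were removed by filterByExpr, and the two-sided quasi-likelihood test compared groups without further terms. Benjamini-Hochberg adjustment ran over 13875 genes, at 0.05. The fit had 2 residual degrees of freedom and moderation added 4.17. The standard error is the log2 fold change over the square root of F. P-values measure the spread between these libraries.

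Alternatives were DESeq2 1.42.0, limma 3.58.1 voom, edgeR's exact test, other scalings and filters, log2 RPKM or FPKM with a pseudocount of 1 or 0.1 in limma (with at least 0.5 in 2 libraries), a block for the replicate number, and fits without each library in turn. Named genes were the Hox genes, the sort genes, and list members of the smallest p or highest level from 5 CPM; Pecam1, Amy2a5, Irx5, Hoxa11as and the miR-196 genes were named after their values were seen. Single values of some genes are not reported here, though sums and counts include them. The Hox genes and the 14 lists were chosen with earlier results of these data known. Counts of Hox genes whose spans overlap, such as Hoxa3 with Hoxa4 and Hoxa5 and Hoxb3 with Hoxb4 in RefSeq, can be affected by the overlap.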

Additional observations from a re-analysis of the deposited data

How the results depend on the processing

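With 2 libraries a group, none of the 25 tested Hox genes passed an adjusted p of 0.05 in edgeR's quasi-likelihood fit or in those of the 16 alternative fits that tested it. Of 372 fold changes from those fits, 27 in 12 genes changed sign against the main value. The median Hox log2 fold change, -0.42 over 25 genes, was -0.57 over 28 genes with DESeq2. It was -0.71 and -0.89 over 17 genes on log2 RPKM with a pseudocount of 1 and 0.1, and -0.66 over 16 genes on log2 FPKM. The medians over all genes in those fits were -0.04, -0.36, -0.46 and -0.37. Leaving out 1 library gave -0.73 over 28 genes (without CD34+ replicate 2) to -0.23 over 26 genes (without CD34- replicate 1). Over the 25 genes of the main fit these medians were -0.46 and -0.25. In place of summed CPM, summed RPKM and FPKM gave log2 ratios of -0.76 and -0.67 for Hoxa, -0.67 and -0.82 for Hoxb, -1.09 and -1.02 for Hoxd, and -0.83 and -0.86 for all Hox genes. In the filtered fits on log2 RPKM and log2 FPKM the medians over all genes thus moved in the same direction as those of Hox genes. On log2 RPKM with a pseudocount of 1 and no filter the medians were -0.04 over all genes and -0.33 over 38 Hox genes. The cause was not tested. CD34- replicate 1 was highest by a fold of 2 for 7 Hox genes and by a fold of 5 for 6, as by a fold of 3. At a fold of 3 it was highest for 2 when 1 CPM was required in another library, which leaves fewer genes. Most of the 6 reached 1 CPM only in CD34- replicate 1. Shares over all genes are given at a fold of 3 only, 0.588% and, with 1 CPM in another library, 0.276%. The counts at folds of 2 and 5 thus have no share beside them and add no support. These alternatives were chosen after seeing the data.

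Several single genes changed sign under another tool, scale or filter. Hoxa3, at 0.08, was -0.0075 without the count filter, -0.26 on log2 RPKM with a pseudocount of 1 with or without a filter, -0.32 with 0.1, and -0.19 on log2 FPKM. Hoxb3 was 0.0076 with RLE size factors. On unfiltered log2 RPKM Hoxb9 was -0.036 and Hoxd4 -0.033, and Hoxd10, at -0.72, was 0.15 with voom. Leaving out each library in turn gave ranges of -1.24 to 0.078 for Hoxa2, -0.19 to 0.35 for Hoxa3, -0.34 to 0.32 for Hoxa4, -0.75 to 0.026 for Hoxa5 and -0.97 to 0.66 for Hoxa7. It gave -3.28 to 2.47 for Hoxa10, -2.79 to 2.90 for Hoxa11, -3.75 to 2.46 for Hoxc8 and -2.31 to 3.04 for Hoxd10, the upper value of these 4 being without CD34- replicate 1. In that fit the CD34- side of these 4 genes rests on 1 or 3 reads. The ranges were -0.071 to 0.0069 for Hoxb3, -0.50 to 1.35 for Hoxb9 and -0.22 to 0.80 for Hoxd4. Cluster medians ranged from -0.72 to 0.0027 for Hoxa and from -0.56 to 0.072 for Hoxd.

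With the replicate number as a block, 0 Hox genes passed in either direction and the median was -0.36, while calls over all genes were 39 higher and 23 lower in CD34+ cells, against 0 and 0. Deviations of same-numbered libraries correlated at 0.24, but with 2 pairs the numbers are not shown to pair the libraries.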
